A study of Homo sapiens with 15 samples.

Results

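The genes described here are long non-coding RNAs whose symbols follow 1 of 2 naming forms, antisense RNAs (a coding gene's symbol followed by -AS and a number) and intergenic RNAs (LINC and a number). A gene was included if a probe set carrying its symbol alone had a mean deposited signal of at least 50 over all 15 arrays, and its brightest probe set stood for it. This gave 107 RNAs, 65 antisense and 42 intergenic, of 1620 genes with such symbols and of 19775 genes with a probe set of their own on the array. The RNAs were thus selected on their mean signal, so the levels themselves are given as a description with no test. The remaining 1513 genes with such symbols lay below the limit.

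The 15 arrays, of Affymetrix design, hold RNA of the human lung adenocarcinoma line A549, with 3 arrays in each of 5 groups. Cells received the DNA-binding match polyamide for 48 hours with dexamethasone for 6 hours, the mismatch polyamide for 48 hours with dexamethasone for 6 hours, mifepristone for 48 hours with dexamethasone for 6 hours, dexamethasone alone for 6 hours, or no treatment. F12K medium and serum treated with charcoal, which lowers its steroid content, were common to all groups. Dexamethasone activates the glucocorticoid receptor, mifepristone blocks that receptor, and polyamides are synthetic molecules that bind in the minor groove of DNA. According to its title the series is about a polyamide specific for the receptor's DNA site, the GRE. No source used here gives a dose, and nothing in the labels says whether replicate arrays came from separate cultures, so the p-values rest on a spread that may be technical in part or in whole. In RNA of whole cultures, fewer cells with an RNA and less of it per cell cannot be told apart.

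Long non-coding RNAs are transcribed by RNA polymerase II and are often spliced and polyadenylated, but are not translated into a known protein. Antisense RNAs run opposite a coding gene, overlapping it or starting next to its promoter, and a few are known to act on that neighbour, while many others have no known role. Several are host transcripts for small nucleolar RNAs, bind microRNAs or proteins, or serve only as a readout of promoter activity.

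Signals are quantile-normalized values on the linear scale, and changes are differences of mean log2(signal + 16), which understate the change of dim RNAs. A change was called at an adjusted p under 0.05 in a limma fit across all 39744 probe sets tested, all 107 RNAs among them. The arrays had not been scaled alike as deposited, with 2% trimmed means of 87.25 to 147.1, and the mean over the 3 mifepristone arrays was 133.9 against 97.42 over the dexamethasone arrays. All 10 epithelial markers exceeded a mean signal of 50, summing to 48662 to 56771 per array. None of 5 leukocyte and none of 4 endothelial markers did. COL1A1 was the 1 of 6 fibroblast markers that did, at a mean of 147, and their sum was 266 to 321 on match arrays, 183 to 248 on mismatch arrays, 146 to 213 on mifepristone arrays, 134 to 190 on dexamethasone arrays and 179 to 210 on non-treated arrays. The part of this shift in the results below was not tested.

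The RNAs spanned a wide range of brightness, with mean deposited signals of 50.2 to 1407 and a median of 88.2. FGD5-AS1 was the brightest at 1407, followed by OIP5-AS1 at 733, PRR34-AS1 at 565, LINC00294 at 511, LINC00674 at 502, EPB41L4A-AS1 at 484, PITPNA-AS1 at 440 and MAPKAPK5-AS1 at 420. A probe set's brightness depends on its own probes, so these values do not order the RNAs by abundance. Just inside the limit were LINC02901 (51.2), LINC00689 (51.2) and ID2-AS1 (50.2), and just outside were ZNF687-AS1 (49.5), TPT1-AS1 (48.9) and LINC00092 (48.8). The mean was under 50 over the 6 polyamide arrays for 7 RNAs and over the 9 other arrays for 5, and these 12 entered only through the arrays on which they were bright. Any of the 12 named below (LINC02381, C10orf95-AS1, FOXN3-AS1, LINC01279, LINC01963, LINC00997 and TSKU-AS1) therefore has any polyamide values given as a description, with no test. Over the dexamethasone arrays alone the mean was under 50 for 18 RNAs, and the other single groups were not counted. RNAs dim in a single group are still tested below, so the selection on signal bears on their p-values too. FGD5-AS1, which lies head to head with the nuclear receptor gene NR2C2, was among the 41 RNAs called in no comparison, and the intervals of its 5 changes lay between -0.36 and 0.27.

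The annotation placed 104 of the 107 by gene identifier, and RefSeq gives each of these the class lncRNA. LINC00973, LINC01296 and LINC01279 were not matched. Of the 65 antisense RNAs, 52 overlap the span of the gene they are named for, and the strands of both genes were listed for 52, on opposite strands in 51. A start site was listed for 86 RNAs, and for 43 of these a coding gene starts on the other strand within 1 kb, an arrangement in which a pair of genes can share a promoter region.

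Dexamethasone changed few of these RNAs. Against non-treated cells, 4 of 107 were called (3.74%), 1 higher and 3 lower, where 4.85% of all probe sets tested (2.56% higher, 2.29% lower) and 9.3% of the 17891 with a mean signal of at least 50 were called. The median change was -0.06 over the RNAs and -0.01 over all probe sets. The intergenic LINC00294 was the one that rose, and LINC00473, ARHGAP5-AS1 and DLGAP1-AS1 fell.

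LINC00294 had signals of 691, 622 and 639 on the dexamethasone arrays, against 427, 416 and 436 on the non-treated arrays. All 3 dexamethasone arrays were the brighter ones, and the groups did not overlap. The change was 0.59 (SE 0.08, adjusted p = 3.1e-05). With mifepristone added, LINC00294 had 438, 455 and 438, which put every mifepristone array below every dexamethasone array, a change of -0.53 (SE 0.08, adjusted p = 0.00015) against dexamethasone alone. Both calls depended on the scaling of the arrays: on signals as deposited the adjusted p was 0.066 for dexamethasone and 0.73 for mifepristone, and with scaling to the spike-in controls it was 0.2 and 0.95. TCP11L1, the coding gene within 10 kb of LINC00294, had signals of 216, 284 and 273 on dexamethasone arrays against 182, 203 and 199 on non-treated arrays, a change of 0.37 (SE 0.10, adjusted p = 0.044). Mifepristone brought TCP11L1 to 183, 180 and 199, a change of -0.42 (SE 0.10, adjusted p = 0.025) against dexamethasone. Both TCP11L1 calls are given for quantile normalization only. The median change of all probe sets with mifepristone was 0.35 on signals as deposited and 0.40 with spike-in scaling.

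LINC00473, an RNA known to be induced through cAMP and CREB in several human cell types, went the other way. Its signals were 94.7, 73.9 and 67.7 on dexamethasone arrays and 147, 142 and 125 on non-treated arrays, with no overlap, a change of -0.71 (SE 0.14, adjusted p = 0.0032). Mifepristone arrays read 110, 138 and 160, all above the dexamethasone arrays, and the change was 0.68 (SE 0.14, adjusted p = 0.0065). Leaving out mifepristone replicate 3 moved that adjusted p to 0.051, and on signals as deposited the adjusted p for dexamethasone was 0.063.

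The remaining pair that dexamethasone lowered were antisense RNAs. DLGAP1-AS1 had 102, 111 and 138 on dexamethasone arrays against 186, 164 and 176 on non-treated arrays, a change of -0.53 (SE 0.11, adjusted p = 0.0057). ARHGAP5-AS1 had 69.7, 85.5 and 91.9 against 136, 137 and 121, a change of -0.59 (SE 0.13, adjusted p = 0.0079). Neither RNA overlapped between the groups. ARHGAP5-AS1 starts head to head with ARHGAP5, and ARHGAP5 itself had 641, 603 and 617 on dexamethasone arrays against 780, 707 and 657 on non-treated arrays (change -0.20, SE 0.10, adjusted p = 0.37). On signals as deposited the adjusted p was 0.26 for DLGAP1-AS1 and 0.18 for ARHGAP5-AS1, with spike-in scaling it was 0.12 for each, and without dexamethasone replicate 1 it was 0.062 for ARHGAP5-AS1.

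Only LINC00294 and LINC00473 were called with mifepristone against dexamethasone, 2 of 107 (1.87%), 1 lower and 1 higher, where 3.55% of all probe sets tested were called, 1.61% higher and 1.94% lower. Before adjustment, 18 of the RNAs had a p under 0.05 in the limma fit. The share of all probe sets under that limit was not counted, so the 18 are not read as a response. This comparison depended most on scaling, since the mifepristone arrays were the brightest as deposited: the median change of all probe sets was 0.35 on signals as deposited and 0.40 with spike-in scaling, against 0.01 after quantile normalization. Under those scalings 38 and 62 of the 107 were called, every one higher, so these calls hold only relative to the shift.

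**Figure D1:**
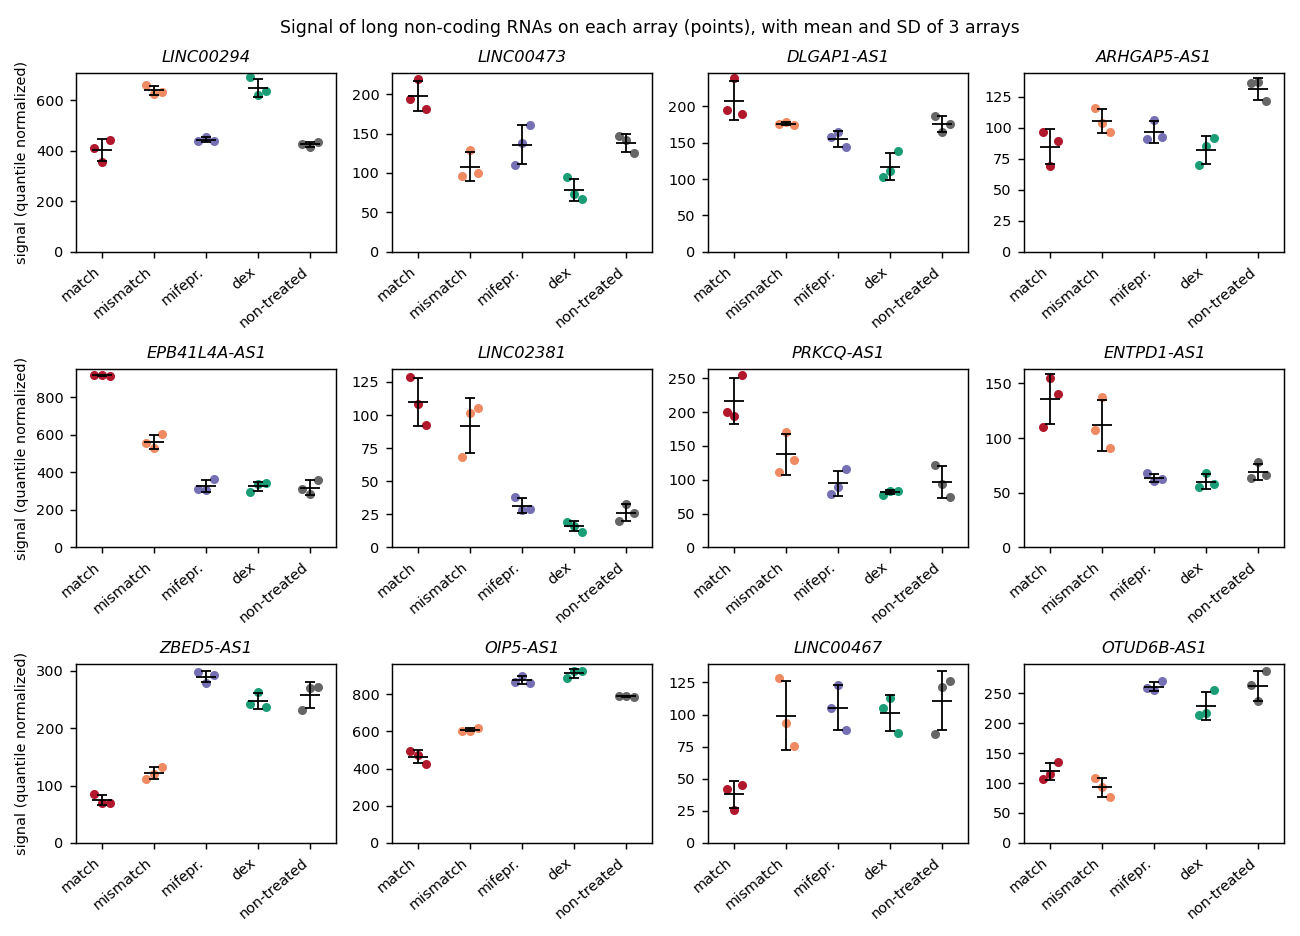
Quantile-normalized signal (linear axis from 0) of 12 long non-coding RNAs on each array, as points, with the mean and SD of the 3 arrays of each group as bars. LINC00294 is high on dexamethasone and mismatch arrays, LINC00473 is lowest on dexamethasone arrays, and EPB41L4A-AS1 is highest on match arrays at 915 to 920.

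The regions around the starts of LINC00294 and LINC00473 are shown because these RNAs moved in opposite directions with dexamethasone and with mifepristone. Each covers 250 bases before and 50 after a RefSeq start (GRCh38.p14), at chr11:33075900-33076199 on the plus strand for LINC00294 and at chr6:165987990-165988289 on the minus strand for LINC00473, read along each gene's strand. Capitals mark AGAACA, the hexamer that glucocorticoid receptor sites share, and TGACG, the core of the cAMP response element, on either strand (TGTTCT and CGTCA).
LINC00294: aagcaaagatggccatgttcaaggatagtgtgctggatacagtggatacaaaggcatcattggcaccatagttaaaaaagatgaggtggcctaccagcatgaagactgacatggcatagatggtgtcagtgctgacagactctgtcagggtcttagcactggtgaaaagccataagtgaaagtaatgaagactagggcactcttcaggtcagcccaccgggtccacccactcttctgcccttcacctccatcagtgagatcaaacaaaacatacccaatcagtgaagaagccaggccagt
LINC00473: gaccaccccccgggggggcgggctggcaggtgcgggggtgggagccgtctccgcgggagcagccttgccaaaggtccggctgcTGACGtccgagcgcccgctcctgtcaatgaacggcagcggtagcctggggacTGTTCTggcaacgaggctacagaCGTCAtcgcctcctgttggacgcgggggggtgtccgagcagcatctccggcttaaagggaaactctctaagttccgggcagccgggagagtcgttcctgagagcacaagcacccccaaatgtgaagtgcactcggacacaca
The LINC00294 window held neither motif, and the LINC00473 window held 1 AGAACA and 2 TGACG. Over all 109 listed windows of the RNAs, 14.7% held AGAACA, against 14.8% of the 35116 windows in the table. TGACG, searched after the values had been seen, was present in 32.1% of the RNAs' windows and 24.6% of all windows. AGAACA and TGTTCT spaced 3 bases apart, a full palindromic site, were in none of the 109 windows and in 1 of all windows. The median GC content was 64.7% in the RNAs' windows and 58.7% in all.

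The match polyamide changed many of these RNAs. Against dexamethasone alone 51 of 107 were called (47.7%), 31 higher and 20 lower, and in 48 of the 51 the 2 groups of arrays did not overlap. How often called probe sets in general did not overlap was not counted, so the 48 are no further support for the calls. Over all probe sets tested 30.8% were called (15.9% higher, 14.9% lower), and over those with a mean signal of at least 50, a closer match in brightness, 54.3%, so the share among the RNAs was near that of other probe sets of their brightness. By direction, 29.0% of the RNAs rose and 18.7% fell, against 28.3% and 26% of the bright probe sets. The median change was 0.19, against 0.03 over all probe sets. Which direction held more calls depended on scaling, with 31 higher and 20 lower after quantile normalization, 20 and 25 after median scaling, and 41 and 7 after spike-in scaling. Without the 12 RNAs that entered through 1 kind of array, a count added after the data had been seen, 45 of 95 were called, 29 higher and 16 lower. Both classes were affected: 32 of 65 antisense RNAs were called (21 higher, 11 lower) and 19 of 42 intergenic RNAs (10 higher, 9 lower). A change of at least 2-fold on the log2(signal + 16) scale was reached by 5 that rose and 3 that fell. LINC02381, C10orf95-AS1 and LINC01279 are among these, though they entered only through the arrays on which they were bright. The share of 2-fold changes over all probe sets was not counted.

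**Figure D2:**
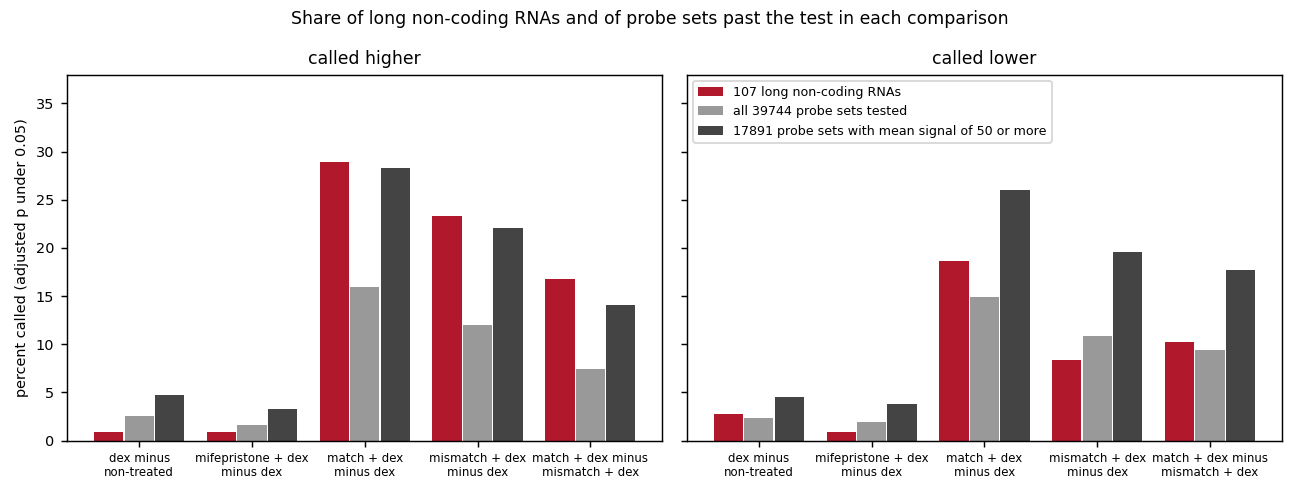
Percent of the 107 long non-coding RNAs, of all 39744 probe sets tested and of the 17891 probe sets with a mean signal of 50 or more that were called higher (left panel) or lower (right panel) in each comparison. With match, 29.0% of the RNAs rose, close to the 28.3% of bright probe sets, and 18.7% fell, against 26%.

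LINC02381, an intergenic RNA of the HOXC gene region, had the largest positive difference with match, which its selection favours. It had signals of 129, 108 and 92.6 on match arrays against 19.4, 16.4 and 11.8 on dexamethasone arrays, a difference of 1.98. Mismatch arrays read 68, 102 and 106, mifepristone arrays 38.1, 28 and 28.7, and non-treated arrays 19.9, 32.6 and 26.3. All 6 polyamide arrays thus stood above all 9 others, and LINC02381 passed the limit of 50 only through them.

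EPB41L4A-AS1, a host of a small nucleolar RNA and also known as TIGA1, an RNA induced on growth arrest, had the largest rise among RNAs bright enough on both kinds of array. It had 919, 920 and 915 on match arrays, 556, 532 and 605 on mismatch arrays, 309, 306 and 363 on mifepristone arrays, 298, 339 and 342 on dexamethasone arrays, and 311, 284 and 361 on non-treated arrays. The match arrays were highest, the mismatch arrays next, and the other 3 groups overlapped each other. The change with match was 1.45 (SE 0.09, adjusted p = 1.6e-10). A second probe set for EPB41L4A-AS1 changed by 1.21 (adjusted p = 0.00082).

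Several further antisense RNAs rose with match. PRKCQ-AS1, opposite the gene for protein kinase C theta, had 200, 194 and 255 on match arrays against 78.1, 83.2 and 83.8 on dexamethasone arrays (change 1.24, SE 0.17, adjusted p = 5.4e-06). ENTPD1-AS1, named for the gene of the ectonucleotidase CD39, had 110, 155 and 140 against 54.9, 67.7 and 58.3 (change 0.98, SE 0.15, adjusted p = 2.1e-05). In both, the match arrays lay wholly above the dexamethasone arrays. C10orf95-AS1, which passed the limit only through the polyamide arrays, had 92.9, 118 and 120 on match arrays against 40.2, 35 and 36.7 on dexamethasone arrays, a difference of 1.24. The other 2 tested probe sets of PRKCQ-AS1 were not called, with changes of 0.28 (adjusted p = 0.43) and 0.43 (adjusted p = 0.11). ASH1L-AS1, which starts head to head with the histone methyltransferase gene ASH1L, rose by 0.95 (SE 0.12, adjusted p = 2.3e-06), and URB1-AS1, beside the ribosome biogenesis gene URB1, by 0.84 (SE 0.13, adjusted p = 2.6e-05). The URB1-AS1 probe set is of a kind that can hybridize with other transcripts.

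Among the intergenic RNAs, LINC00473 had 194, 219 and 181 on match arrays against 94.7, 73.9 and 67.7 on dexamethasone arrays, a change of 1.18 (SE 0.14, adjusted p = 1.5e-06). Its match arrays also lay above the non-treated arrays, at 125 to 147. LINC01128 rose by 0.90 (SE 0.12, adjusted p = 7.7e-06), but its probe sets differed: of the 3 others tested, 1 rose by 1.04 (adjusted p = 0.0035) and the other 2 changed by 0.29 (adjusted p = 0.46) and 0.18 (adjusted p = 0.49). LINC02693 rose by 0.82 (SE 0.13, adjusted p = 3e-05), with 114, 99.8 and 118 on match arrays against 51, 50.8 and 65.6 on dexamethasone arrays.

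The falls with match were led by ZBED5-AS1, which starts head to head with ZBED5, a gene derived from a transposase. It had 85.1, 70 and 69 on match arrays, 112, 120 and 133 on mismatch arrays, 298, 279 and 293 on mifepristone arrays, 242, 264 and 237 on dexamethasone arrays, and 233, 270 and 272 on non-treated arrays. The 6 polyamide arrays were all lower than the other 9, with match below mismatch. The change with match was -1.54 (SE 0.10, adjusted p = 3.3e-10).

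OIP5-AS1, the human counterpart of the conserved RNA Cyrano, which in mice directs the decay of a microRNA, also fell. Its signals were 493, 471 and 427 on match arrays, 604, 604 and 618 on mismatch arrays, and 885, 926 and 923 on dexamethasone arrays, with no overlap among these groups. The change with match was -0.95 (SE 0.06, adjusted p = 3.4e-10), and the other 2 tested probe sets of OIP5-AS1 fell by 0.83 (adjusted p = 1.8e-07) and 0.62 (adjusted p = 0.00019). LINC00467 had 42.1, 25.9 and 45.4 on match arrays against 105, 113 and 85.4 on dexamethasone arrays, a change of -1.14 (SE 0.19, adjusted p = 6.6e-05), and its second probe set fell by 0.94 (adjusted p = 3.6e-05). LINC01279, which passed the limit only through the arrays without polyamide, had 30.9, 8.77 and 11.8 against 79, 70.5 and 77.6, a difference of -1.52. These match values were among the dimmest of the RNAs described here.

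The other RNAs among the 10 largest falls with match were LINC01963 (-0.98, with the same limit on its selection as LINC01279), OTUD6B-AS1 (-0.85), LINC02035 (-0.78), PRR34-AS1 (-0.72), LINC02582 (-0.67) and LINC00294 (-0.67). LINC00294 had 411, 357 and 445 on match arrays, against 691, 622 and 639 on dexamethasone arrays, and its match arrays overlapped the non-treated arrays at 416 to 436. With spike-in scaling, under which the median of all probe sets was 0.24 higher with match, the adjusted p was 0.084 for LINC00294, 0.11 for LINC02582 and 0.054 for PRR34-AS1. LINC00674, one of the brightest, had 534, 355 and 329 against 717, 520 and 454, a change of -0.46 (SE 0.15, adjusted p = 0.021) although its groups overlapped. The adjusted p of LINC00674 was 0.16 without dexamethasone replicate 1, 0.098 without match replicate 2 and 0.13 without match replicate 3. It was also 0.16 on signals as deposited, 0.49 with spike-in scaling (change -0.21), 0.07 with no variance trend and 0.071 in a fit of the 6 arrays alone, so this call was lost in 7 of 27 alternatives.

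**Figure D3:**
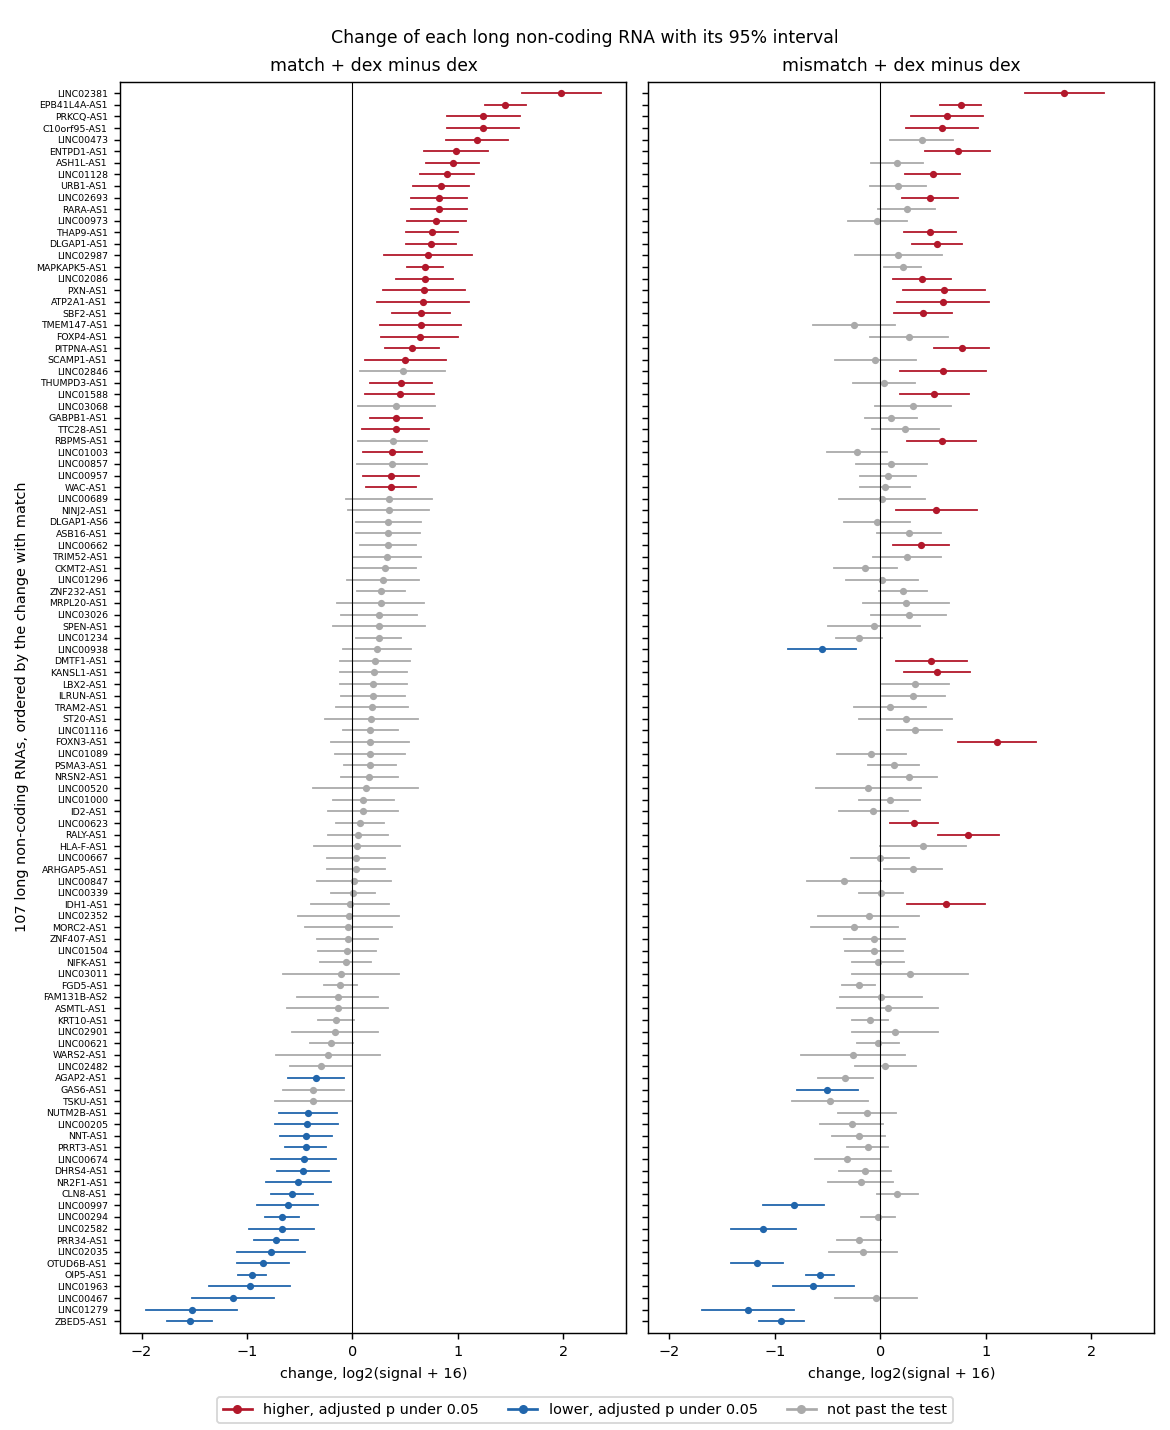
Change of each of the 107 long non-coding RNAs, as a difference of mean log2(signal + 16) with its 95% interval, with match plus dexamethasone minus dexamethasone (left) and mismatch plus dexamethasone minus dexamethasone (right), ordered by the match change. Match changes run from 1.98 for LINC02381 to -1.54 for ZBED5-AS1, and both panels share the 3 dexamethasone arrays.

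The windows around the starts of EPB41L4A-AS1, LINC02381, ZBED5-AS1 and OIP5-AS1 are given because these RNAs had the largest changes or the brightest signals among those the match polyamide changed. They lie at chr5:112160276-112160575, chr12:54125821-54126120, chr11:10857967-10858266 and chr15:41283740-41284039, all on the plus strand (GRCh38.p14, RefSeq starts), with capitals as above.
EPB41L4A-AS1: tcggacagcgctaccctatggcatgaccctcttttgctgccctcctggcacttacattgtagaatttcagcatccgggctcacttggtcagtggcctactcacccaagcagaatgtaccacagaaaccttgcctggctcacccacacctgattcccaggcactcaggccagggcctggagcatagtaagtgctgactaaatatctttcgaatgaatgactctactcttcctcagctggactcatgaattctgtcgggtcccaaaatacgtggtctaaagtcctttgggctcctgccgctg
LINC02381: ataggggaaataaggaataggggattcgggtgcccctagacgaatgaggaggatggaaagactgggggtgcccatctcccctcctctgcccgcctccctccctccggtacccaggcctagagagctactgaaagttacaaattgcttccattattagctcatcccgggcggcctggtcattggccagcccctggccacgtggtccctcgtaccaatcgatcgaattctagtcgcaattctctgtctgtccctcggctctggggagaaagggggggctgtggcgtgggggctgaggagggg
ZBED5-AS1: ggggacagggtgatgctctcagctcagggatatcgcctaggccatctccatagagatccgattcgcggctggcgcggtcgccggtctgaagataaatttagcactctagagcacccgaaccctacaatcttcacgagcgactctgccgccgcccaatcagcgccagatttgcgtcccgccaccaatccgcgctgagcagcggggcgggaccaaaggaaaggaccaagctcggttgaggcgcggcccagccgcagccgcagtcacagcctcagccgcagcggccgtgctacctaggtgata
OIP5-AS1: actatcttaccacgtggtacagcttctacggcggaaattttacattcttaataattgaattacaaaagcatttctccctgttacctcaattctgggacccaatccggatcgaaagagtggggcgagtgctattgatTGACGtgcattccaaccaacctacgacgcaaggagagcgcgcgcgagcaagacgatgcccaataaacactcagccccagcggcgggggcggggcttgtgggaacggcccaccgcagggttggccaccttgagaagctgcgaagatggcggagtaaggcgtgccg
AGAACA was in none of these 4 windows, and the OIP5-AS1 window held 1 TGACG. Among RNAs that rose with match, 12.5% of 32 windows held AGAACA, among those that fell 10.5% of 19, and among those not called 17.2% of 58. TGACG was in 43.8%, 15.8% and 31.0% of the same windows. Windows of the same gene overlap and are not independent.

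The mismatch polyamide, given in the same way, changed 34 of 107 RNAs against dexamethasone alone (31.8%), 25 higher and 9 lower, where 22.9% of all probe sets tested (12.0% higher, 10.9% lower) and 41.7% of the bright ones were called. By direction, 23.4% of the RNAs rose and 8.4% fell, against 22.1% and 19.6% of the bright probe sets. In 31 of the 34 the arrays did not overlap, again without a share over all called probe sets to set beside it. Without the 12 RNAs that entered through 1 kind of array, 27 of 95 were called, 21 higher and 6 lower. The median change was 0.09, against 0.02 over all probe sets. Of antisense RNAs 17 rose and 4 fell, and of intergenic RNAs 8 rose and 5 fell. The split was 15 higher and 5 lower with spike-in scaling, and 19 and 11 with trimmed-mean scaling. The dexamethasone arrays are shared with the match comparison, so the values of both are given side by side without a measure of their likeness.

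EPB41L4A-AS1 rose by 0.76 with mismatch (SE 0.09, adjusted p = 3.4e-06) and by 1.45 with match. LINC02381, selected through these arrays, differed by 1.75 with mismatch and by 1.98 with match. PITPNA-AS1, opposite the gene for a phosphatidylinositol transfer protein, had 550, 721 and 445 on mismatch arrays and 444, 539 and 476 on match arrays, against 321, 322 and 324 on dexamethasone arrays. Every polyamide array was above the narrow range of the dexamethasone arrays, and the changes were 0.77 (SE 0.12, adjusted p = 0.0001) with mismatch and 0.57 with match. ENTPD1-AS1 rose by 0.73 and PRKCQ-AS1 by 0.63 with mismatch. PRKCQ-AS1 had an adjusted p of 0.06 without mismatch replicate 2.

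FOXN3-AS1 and RALY-AS1 were high on mismatch arrays, and RALY-AS1 was not called with match. FOXN3-AS1, named for a forkhead transcription factor gene and past the limit only through the polyamide arrays, had 112, 109 and 103 on mismatch arrays, against 53.4, 42.7 and 30.9 on dexamethasone arrays, a difference of 1.11. On match arrays it had 49.1, 40.9 and 57.1, within or close to the dexamethasone range, a difference of 0.17. RALY-AS1, beside the gene of an RNA-binding protein, had 114, 117 and 109 on mismatch arrays against 48.7, 60.5 and 60.4 on dexamethasone arrays (change 0.84, SE 0.14, adjusted p = 0.00012). Its match arrays read 55, 59.5 and 63.1, and the interval of that change was -0.23 to 0.34. IDH1-AS1, which starts head to head with the isocitrate dehydrogenase gene IDH1, had 98.7, 88.7 and 79.7 on mismatch arrays against 53.2, 52.2 and 50.7 (change 0.62, SE 0.18, adjusted p = 0.014, or 0.062 without mismatch replicate 1).

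PXN-AS1 rose by 0.60 (adjusted p = 0.023) and ATP2A1-AS1 by 0.60 (adjusted p = 0.044), and both calls were lost when single arrays were left out. The ATP2A1-AS1 call was lost in 12 of 27 alternatives, some of them changes of processing with all arrays kept. The groups overlapped for PXN-AS1, at 120, 112 and 63 on mismatch arrays against 59.3, 49.8 and 63.1 on dexamethasone arrays. For PXN-AS1 the adjusted p was 0.093 without dexamethasone replicate 2, 0.13 without mismatch replicate 1 and 0.11 without mismatch replicate 2. For ATP2A1-AS1 it was 0.27 without mismatch replicate 2, where the change was 0.36, and 0.16 without dexamethasone replicate 1, and it lay between the threshold and 0.075 without dexamethasone replicate 2 or 3, mismatch replicate 1, mifepristone replicate 1 or match replicate 3.

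Of the RNAs that fell with mismatch, OTUD6B-AS1, named for a deubiquitinase gene, had 108, 93.7 and 76.4 on mismatch arrays against 213, 216 and 255 on dexamethasone arrays (change -1.17, SE 0.12, adjusted p = 3.6e-07), with both groups far apart, although its second probe set was not called (change -0.33, adjusted p = 0.35). LINC02582 had 73.9, 67.1 and 108 against 227, 160 and 201 (change -1.11, SE 0.15, adjusted p = 1.1e-05). With match these changed by -0.85 and -0.67. ZBED5-AS1 fell by 0.94, OIP5-AS1 by 0.57, LINC00938 by 0.55 and GAS6-AS1 by 0.50. On signals as deposited the adjusted p was 0.11 for OIP5-AS1, 0.16 for LINC00938 and 0.2 for GAS6-AS1. Leaving out dexamethasone replicate 3 gave 0.066 for LINC00938 and 0.056 for GAS6-AS1. In all, of 27 alternatives the call was lost in 2 for OIP5-AS1, 3 for LINC00938 and 3 for GAS6-AS1. LINC01279 had 12.9, 30.4 and 26.4 on mismatch arrays against 79, 70.5 and 77.6 on dexamethasone arrays, a difference of -1.25, LINC00997 differed by -0.82 and LINC01963 by -0.63, all 3 being RNAs that passed the limit only through the arrays without polyamide.

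Set directly against each other, the 2 polyamides differed in 29 of the 107 RNAs (27.1%), 18 higher and 11 lower with match, where 16.9% of all probe sets tested (7.47% higher, 9.38% lower) and 31.8% of the bright ones were called. By direction, 16.8% of the RNAs were higher and 10.3% lower with match, against 14.1% and 17.7% of the bright probe sets. Without the 12 RNAs that entered through 1 kind of array, 27 of 95 were called, 17 higher and 10 lower. In 28 of the 29 the arrays did not overlap, a count that likewise has no share over all called probe sets beside it. The median difference was 0.05 against 0.01 over all probe sets. The dominant direction depended on scaling: 18 were higher and 11 lower after quantile normalization, 11 and 17 after median scaling, 6 and 10 as deposited, and 14 and 4 with spike-in scaling. The same hours are given for both polyamides, but the doses of either are not.

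TMEM147-AS1, which starts head to head with the membrane protein gene TMEM147, had the largest excess with match, at 381, 215 and 374 on match arrays against 172, 152 and 159 on mismatch arrays (difference 0.90, SE 0.19, adjusted p = 0.0017). Its lowest match array was still above the highest mismatch array. LINC00973 had 139, 97.3 and 122 on match arrays against 56.5, 64.3 and 58.5 on mismatch arrays (0.83, SE 0.13, adjusted p = 0.00019). ASH1L-AS1 had 157, 146 and 142 on match arrays against 72, 92.2 and 73.7 on mismatch arrays (0.79, SE 0.12, adjusted p = 7.6e-05). None of these 3 was called with mismatch against dexamethasone, where LINC00973 had an interval of -0.31 to 0.25.

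LINC00473 was higher by 0.79 with match than with mismatch (SE 0.14, adjusted p = 0.0005), with mismatch arrays at 95.6, 129 and 101. LINC00938 was higher by 0.78 (adjusted p = 0.0012), EPB41L4A-AS1 by 0.69 (adjusted p = 2.3e-05), URB1-AS1 by 0.67, PRKCQ-AS1 by 0.61 and LINC01003 by 0.60. C10orf95-AS1 differed by 0.65, given with no test. On signals as deposited the adjusted p was 0.066 for URB1-AS1, 0.14 for LINC01003 and 0.17 for PRKCQ-AS1. The adjusted p of PRKCQ-AS1 was also 0.078 without match replicate 3 and 0.085 without mismatch replicate 1.

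On the other side, LINC00467 was lowest relative to mismatch, with 42.1, 25.9 and 45.4 on match arrays against 129, 93.5 and 75.6 on mismatch arrays (difference -1.09, SE 0.19, adjusted p = 0.00031). Mismatch left it at the dexamethasone level within an interval of -0.43 to 0.35. LINC00294 had 411, 357 and 445 on match arrays against 660, 626 and 635 on mismatch arrays (-0.65, SE 0.08, adjusted p = 6.5e-06). Between mismatch and dexamethasone its change was -0.02, with an interval of -0.18 to 0.14. The RNA that dexamethasone raised was thus lower with match and with mifepristone, while the mismatch arrays overlapped those of dexamethasone alone. CLN8-AS1 had 173, 157 and 139 on match arrays against 272, 252 and 285 on mismatch arrays (-0.73, SE 0.09, adjusted p = 1.5e-05).

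FOXN3-AS1 differed by -0.94, given with no test. RALY-AS1 differed by -0.78 (adjusted p = 0.0004), IDH1-AS1 by -0.65, LINC02035 by -0.61, ZBED5-AS1 by -0.60, PRR34-AS1 by -0.52 and OIP5-AS1 by -0.38. With spike-in scaling, under which the median of all probe sets was 0.16 higher with match than with mismatch, the adjusted p was 0.085 for LINC00294, 0.22 for IDH1-AS1, 0.22 for LINC02035, 0.16 for ZBED5-AS1, 0.23 for PRR34-AS1 and 0.46 for OIP5-AS1. IDH1-AS1 also had an adjusted p of 0.093 without match replicate 2 and 0.065 without mismatch replicate 1, and LINC02035 one of 0.061 without mismatch replicate 3. ENTPD1-AS1, which rose with both polyamides, was not shown to differ between the compounds, with an interval of the difference of -0.06 to 0.55. For LINC02381 and LINC01279, described with no test, the match and mismatch arrays overlapped.

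Each antisense RNA was then set beside the coding gene it is named for, in 56 pairs in which both were tested. The gene of a probe set is that of the annotation, and the strand its probes detect was not examined. With match against dexamethasone, both were called in 10 pairs, the antisense RNA alone in 16, the coding gene alone in 17 and neither in 13. The coding genes themselves were called in 27 of 56 pairs, 12 higher and 15 lower, a share (48.2%) between the 30.8% of all probe sets and the 54.3% of bright ones. Of the antisense RNAs in the 56 pairs, 17 were higher and 9 lower. Of the 10 pairs, 4 rose together, 1 fell together, 5 had a higher antisense RNA with a lower coding gene, and none had the reverse. These joint counts were not set against those that the separate counts of each partner would give. They are thus no sign that partners moved together or apart. The Pearson correlation of the changes across the 56 pairs was -0.09, a description only, since the pairs share the same arrays.

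EPB41L4A-AS1 and EPB41L4A, a gene for a membrane-cytoskeleton linker protein, lie on opposite strands with overlapping spans and moved apart most clearly. EPB41L4A had 148, 142 and 124 on match arrays, 272, 272 and 272 on mismatch arrays, 189, 152 and 151 on mifepristone arrays, 363, 359 and 397 on dexamethasone arrays, and 118, 134 and 138 on non-treated arrays. Its dexamethasone arrays were the highest, and its non-treated, match and mifepristone arrays the lowest. The change was 1.41 with dexamethasone (SE 0.10, adjusted p = 7e-09), -1.12 with mifepristone (adjusted p = 3.2e-07), -1.34 with match (adjusted p = 2.6e-09) and -0.43 with mismatch (adjusted p = 0.0036). EPB41L4A-AS1 changed by 0.04 with dexamethasone (adjusted p = 0.92) and by 0.00 with mifepristone (adjusted p = 1), so the coding gene's response to dexamethasone was not seen in the antisense RNA. The mismatch call of EPB41L4A was lost on signals as deposited (adjusted p = 0.39) and with spike-in scaling (adjusted p = 0.25).

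The other 4 pairs with a higher antisense RNA and a lower coding gene were those of SBF2, TTC28, PXN and SCAMP1. SBF2, which encodes a phosphatase-like activator of Rab proteins, had 42.3, 38 and 28.6 on match arrays against 267, 231 and 226 on dexamethasone arrays (change -2.30, SE 0.14, adjusted p = 5.8e-11), while SBF2-AS1 had 124, 113 and 142 against 68.1, 68.2 and 87.9 (change 0.65, SE 0.13, adjusted p = 0.00056). TTC28 had 11.7, 12.6 and 10.3 against 136, 117 and 116 (change -2.33, SE 0.17, adjusted p = 1.3e-09), while TTC28-AS1 changed by 0.41 (adjusted p = 0.045). PXN, the gene of the focal adhesion protein paxillin, fell by 0.61 (adjusted p = 0.0097) and PXN-AS1 rose by 0.68 (adjusted p = 0.0072). SCAMP1 fell by 0.64 (adjusted p = 3.1e-07) and SCAMP1-AS1 rose by 0.50 (adjusted p = 0.043).

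**Figure D4:**
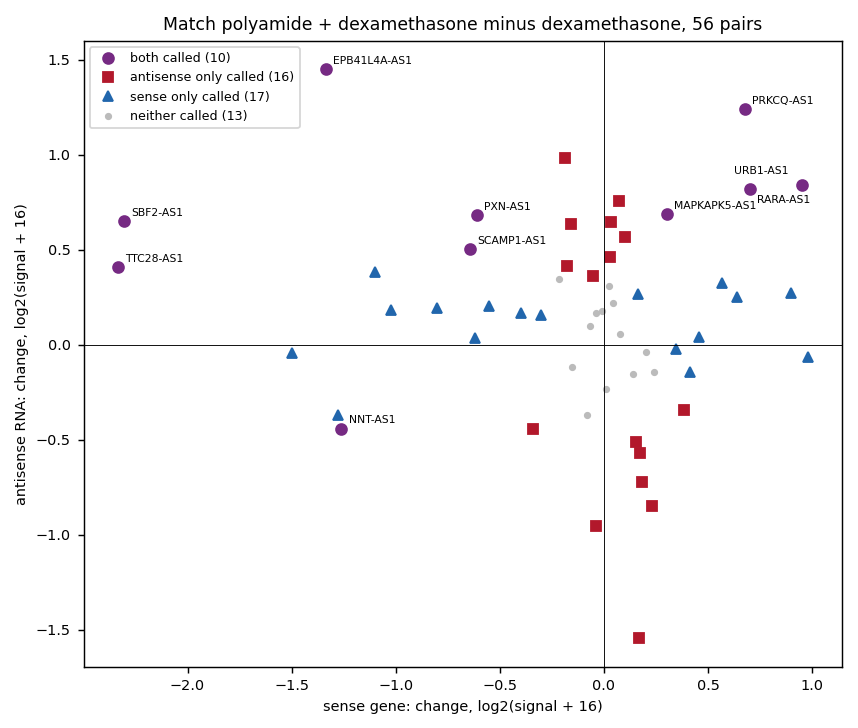
Change with match plus dexamethasone minus dexamethasone of each antisense RNA (vertical axis) against the coding gene it is named for (horizontal axis), both as differences of mean log2(signal + 16), in 56 pairs marked by which of the 2 was called. The 10 pairs with both called are named, and EPB41L4A-AS1 stands apart at 1.45 with its coding gene at -1.34.

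The pairs that rose together with match were those of PRKCQ, RARA, URB1 and MAPKAPK5. RARA, the gene of retinoic acid receptor alpha, had 133, 127 and 161 on match arrays against 78.7, 74.4 and 86 on dexamethasone arrays (change 0.70, SE 0.14, adjusted p = 0.00051), and RARA-AS1 had 149, 161 and 139 against 74.8, 83 and 75.2 (change 0.82, SE 0.13, adjusted p = 3.5e-05). Neither of these overlapped between the groups. URB1 rose by 0.95 (adjusted p = 3.3e-05), PRKCQ by 0.68 (adjusted p = 0.00073) and MAPKAPK5 by 0.30 (adjusted p = 0.02), the last with adjusted p-values of 0.13 without dexamethasone replicate 1 and 0.091 without match replicate 3. In all, the MAPKAPK5 call was lost in 5 of 26 alternatives, with a lowest change of 0.14 and a highest adjusted p of 0.40 in the limma fits. NNT, the mitochondrial transhydrogenase gene, fell with its antisense RNA: NNT had 86.6, 74.9 and 78.7 against 202, 208 and 233 (change -1.26, SE 0.12, adjusted p = 3.9e-08), and NNT-AS1 had 112, 84.8 and 83.2 against 127, 136 and 131 (change -0.44, SE 0.12, adjusted p = 0.0066).

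Large changes of an antisense RNA often stood beside a coding gene that was not called. ZBED5 had 476, 488 and 452 on match arrays against 404, 433 and 418 on dexamethasone arrays (change 0.17, SE 0.07, adjusted p = 0.065), while ZBED5-AS1 fell by 1.54. Dexamethasone, in turn, lowered ZBED5 by 0.80 (adjusted p = 4.9e-08), with 404, 433 and 418 on dexamethasone arrays against 772, 735 and 721 on non-treated arrays, where ZBED5-AS1 changed by -0.06 (adjusted p = 0.89). OIP5, a gene for a centromere protein, changed by -0.04 with match (adjusted p = 0.77) and by 0.57 with mismatch (adjusted p = 1.4e-05), beside falls of 0.95 and 0.57 of OIP5-AS1.

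The reverse also occurred. ZNF407, a zinc finger gene, fell to 23.9, 19.8 and 25.9 on match arrays, against 90.6, 82.7 and 112 on dexamethasone arrays (adjusted p = 3.9e-07), while ZNF407-AS1 was not called. TSKU, a gene for a secreted proteoglycan, fell by 1.28 with match (adjusted p = 1.5e-08). TSKU-AS1 passed the limit only through the arrays without polyamide, so no test is given for it. NIFK, a gene for a nucleolar protein, had 1461, 1451 and 1341 on match arrays against 711, 717 and 704 on dexamethasone arrays (change 0.98, adjusted p = 1.5e-10), and NIFK-AS1 was not called. The coding genes that fell with match had a median annotated span of 120100 bases in 15 genes, against 33650 bases in the 12 that rose and 28900 bases in the 29 not called. For the RNAs themselves these medians were 10284 bases in the 19 that fell, 6625 bases in the 30 that rose and 7680 bases in the 55 not called.

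With mismatch both partners were called in 7 of the 56 pairs, 4 with a higher antisense RNA and a lower coding gene, 2 with the reverse and 1 with both higher. FOXN3 fell by 0.74 (adjusted p = 0.00017) where FOXN3-AS1, counted among these 4 though selected through these arrays, differed by 1.11, and SBF2 fell by 1.81 (adjusted p = 6.5e-09) where SBF2-AS1 rose by 0.41 (adjusted p = 0.028). OTUD6B and OIP5 were the higher ones beside lower antisense RNAs, but OTUD6B, with a change of 0.32 (adjusted p = 0.038), was not called without dexamethasone replicate 2 (adjusted p = 0.11), dexamethasone replicate 3 (0.19), mismatch replicate 2 (0.079) or mismatch replicate 3 (0.18). Counting these, the OTUD6B call was lost in 10 of 26 alternatives. IDH1 rose by 0.51 (adjusted p = 3.7e-07) together with IDH1-AS1. In all, mismatch changed 19 of the 56 coding genes (33.9%), 8 higher and 11 lower, against 22.9% of all probe sets tested and 41.7% of bright ones. Of the antisense RNAs in these pairs, 14 were higher and 4 lower with mismatch. The joint counts carry the same limit as with match. With dexamethasone and with mifepristone no pair had both partners called, and 5 coding genes were called in each (8.9%), 2 higher and 3 lower. The shares of all probe sets were 4.85% and 3.55%, and of bright ones 9.3% and 7.04%, in that order. Between the polyamides 20 coding genes were called (35.7%), 8 higher and 12 lower with match, against 16.9% of all probe sets and 31.8% of bright ones.

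Start sites gave a second kind of pairing, of RNAs whose start lies within 1 kb of a coding gene's start on the other strand. In 34 such pairs tested, match raised 10 of the RNAs and lowered 3, and raised 10 and lowered 9 of the coding genes. These are 38.2% of the RNAs and 55.9% of the coding genes, against 30.8% of all probe sets tested and 54.3% of bright ones. Both rose in 3 pairs, both fell in 1, and 1 had a higher RNA and a lower coding gene. These joint counts, too, were not set against those that the separate counts would give.

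Some of the intergenic RNAs were set beside the nearest coding gene of the annotation. The neighbours given here are only a part of those measured. Calls among all neighbours were not counted, so the ones given do not stand for the whole. Their values are given for quantile normalization only. PDE10A, a phosphodiesterase gene whose span overlaps LINC00473, had 10.5, 12.7 and 17.3 on match arrays and 21.4, 33.8 and 22.5 on mismatch arrays, against 88.5, 79.6 and 97.7 on dexamethasone arrays. PDE10A changed by -1.83 with match (SE 0.15, adjusted p = 8.6e-09) and -1.33 with mismatch (SE 0.15, adjusted p = 1.8e-06), where LINC00473 changed by 1.18 and 0.39 (adjusted p = 0.054 for the second). The level of PDE10A was 82.2 to 94.1 on non-treated arrays, so the response of LINC00473 to dexamethasone had no counterpart there (PDE10A change 0.03, adjusted p = 0.97). TRAF5, a signalling adaptor gene within 10 kb of LINC00467, rose by 1.03 with match (adjusted p = 6.4e-07) where LINC00467 fell by 1.14, and by 0.81 with mismatch (adjusted p = 2.6e-05) where LINC00467 changed by -0.04. TCP11L1, beside LINC00294, fell by 0.86 with match (SE 0.10, adjusted p = 1.6e-06) and changed by 0.18 with mismatch (adjusted p = 0.25), and its match-minus-mismatch difference was -1.04 (adjusted p = 6.8e-07). SLC49A4, within 10 kb of LINC02035, fell by 0.41 with match (adjusted p = 0.00034), beside a fall of 0.78 of LINC02035. ARID2, within 10 kb of LINC00938, had 117, 115 and 66.8 on match arrays and 72, 116 and 113 on mismatch arrays. Its dexamethasone arrays read 193, 198 and 151.

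Many long non-coding RNAs carry other names, and a list of 40 of them was examined, of which 27 were tested. Dexamethasone changed 1 (NRAV, lower) and mifepristone none, with match 7 were called (2 higher, 5 lower), with mismatch 8 (1 higher, 7 lower), and between the polyamides 4 (all higher with match). These are 25.9%, 29.6% and 14.8% of the 27 with match, with mismatch and between the polyamides, against 30.8%, 22.9% and 16.9% of all probe sets tested and 54.3%, 41.7% and 31.8% of bright ones, in that order. Of the 27, 3 had an unadjusted p under 0.05 with mifepristone in the limma fit, again without a share over all probe sets to set beside it. NRAV had 103, 161 and 120 on dexamethasone arrays against 167, 178 and 192 on non-treated arrays (change -0.45, adjusted p = 0.031), a call lost without non-treated replicate 2 (adjusted p = 0.089) or 3 (0.14) and without dexamethasone replicate 1 (0.2) or 3 (0.11). Counting these, this NRAV call was lost in 9 of 26 alternatives, with a highest adjusted p of 0.44 in the limma fits. MIR31HG, the host of a microRNA, had 55.6, 50.9 and 59.5 on match arrays and 57, 51.6 and 48.1 on mismatch arrays, against 154, 199 and 151 on dexamethasone arrays, changes of -1.36 with match (SE 0.12, adjusted p = 1.7e-08) and -1.42 with mismatch (SE 0.12, adjusted p = 2.6e-08). MIR100HG fell by 1.01 with match and 1.00 with mismatch, with signals that were already low at 20.5 to 37.3 on dexamethasone arrays. NORAD, which binds PUMILIO proteins, had 1488, 1415 and 1502 on mismatch arrays against 2142, 2149 and 2259 on dexamethasone arrays (change -0.57, SE 0.06, adjusted p = 1.1e-06) and was higher by 0.42 with match than with mismatch (adjusted p = 7.6e-05). TUG1 fell by 0.53 with mismatch (adjusted p = 0.00031) and changed by 0.02 with match (adjusted p = 0.93). HCG18 and HEIH rose with match: HEIH had 325, 296 and 362 on match arrays against 259, 213 and 228 on dexamethasone arrays. NRAV rose with mismatch, at 175, 167 and 164. FENDRR was higher with match (32.8, 26.3 and 32.2) than with mismatch (4, 20.4 and 16.1). Of 26 alternatives, the call was lost in 3 for HCG18, 2 for HEIH, 9 for NRAV with mismatch and 16 for FENDRR.

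MALAT1, an abundant nuclear RNA, had 397, 176 and 148 on match arrays and 170, 97.2 and 263 on mismatch arrays, against 1739, 1566 and 399 on dexamethasone arrays and 660, 135 and 212 on non-treated arrays. Its called changes of -2.16 with match (SE 0.58, adjusted p = 0.0068) and -2.54 with mismatch (SE 0.58, adjusted p = 0.0028) came with a spread within groups far wider than that of the other RNAs.

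Other probe sets of the same RNA gave a further view of the calls. Of the 51 RNAs called with match, 23 had other tested probe sets, 47 in all, of which 14 were called in the same direction, none in the opposite and 33 not at all. With mismatch the figures were 28 other probe sets of 17 RNAs, 3 in the same direction, none opposite and 25 not called. Between the polyamides 21 other probe sets of 13 RNAs gave 8 in the same direction, none opposite and 13 not called. The other probe sets are dimmer by the way the RNA's own was chosen.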

How the data were processed

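Each probe set had 1 linear intensity signal per array, deposited by the authors and made with MAS5 per the submitters' processing notes, whose version and scaling target no source used here gives. There were 54675 probe sets on 15 arrays, 41097 of them with 1 gene symbol in the probe annotation, 1801 with several and 11777 without a named gene.

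Signals were quantile normalized because the arrays were not scaled alike, and log2(signal + 16) was taken. Testing was limited to probe sets that exceeded the array's 40th percentile on at least 3 of the 15 arrays, without the 62 control probe sets. In limma 3.58.1 (R 4.3.3) a mean was fitted for every group over all 15 arrays, with a variance trend, 10 residual and 9.36 prior degrees of freedom, and Benjamini-Hochberg adjustment over the 39744 probe sets tested. The fit was tested on simulated data. The number of arrays limits the precision.

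The RNAs, the lists and the rule for named genes were chosen with earlier results of these data known. The text names up to 10 called RNAs with the largest rise and 10 with the largest fall per comparison, the 8 brightest, those next to the signal limit, and up to 3 risen and 3 fallen of the other non-coding RNAs. For some of the RNAs so named, the coding gene or neighbour is named as well. The 10 pairs with both partners called with match, the further coding genes named beside them (TSKU, ZNF407, NIFK), and the TGACG motif were chosen after their values were seen. Neighbours, spans and start sites came from RefSeq (GRCh38.p14), start sites for 86 of 107. Alternatives were 4 scalings, 2 pseudocounts, 2 filters, no variance trend, the replicate block, the 6 arrays compared alone, unique probe sets and each array left out.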

Additional observations from a re-analysis of the deposited data

How the results depend on the processing

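On signals as deposited 0 of the 107 RNAs were called with dexamethasone, 38 with mifepristone and 16 between the polyamides, and with spike-in scaling 1 with dexamethasone, 62 with mifepristone, 20 with mismatch and 18 between the polyamides. Of the coding partners, signals as deposited gave 2 with dexamethasone, 27 with mifepristone and 9 between the polyamides, spike-in scaling gave 2, 33 and 10 in that order, and a fit with no variance trend gave 3 with mifepristone. Of the 27 other non-coding RNAs, signals as deposited gave 7 with mifepristone, 4 with match, 4 with mismatch and 0 between the polyamides, and spike-in scaling gave 10 with mifepristone and 5 with mismatch. Median scaling, no variance trend and the 6 arrays compared alone each gave 0 of them with dexamethasone and 2 between the polyamides, as no filter did between the polyamides. Leaving out 1 array at a time gave 44 to 51 RNAs with match, 25 to 36 with mismatch, 24 to 29 between the polyamides, 1 to 3 with mifepristone and 3 to 6 with dexamethasone. For coding partners these omissions gave 23 to 27, 17 to 20, 16 to 21, 3 to 5 and 4 to 6 in the same order, and for other non-coding RNAs 6 to 8, 7 to 9, 2 to 4, 0 to 1 and 0 to 2. With the replicate block 48 RNAs were called with match, 37 with mismatch, 30 between the polyamides, 2 with mifepristone and 4 with dexamethasone; deviations of same-numbered arrays correlated by -0.08 to 0.12 over 30 pairs, and 8 of 15 arrays correlated best with their own number, so the numbers were not taken as pairs. Of 69 named results for the RNAs 39 kept their call under every alternative, 30 lost it at least once and 0 reversed. Results of LINC02381, C10orf95-AS1, FOXN3-AS1, LINC01279, LINC01963 and LINC00997, described above with no test, are among the 69 and mostly among the 39. For these RNAs the tally is no support. Named results, those kept, those lost and those reversed numbered 14, 7, 7 and 0 for coding partners, and 13, 6, 7 and 0 for other non-coding RNAs. The cause of these differences was not tested. Scalings other than quantile normalization shifted the median of all probe sets by up to 0.40, so a call is a change relative to most probe sets. Dim RNAs, near the added 16, have understated changes.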
